A study of Mus musculus with 4 samples.

Results

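Nuclear genes of respiratory complexes II and III and of ATP synthase were followed in white adipose tissue from beneath the skin (subcutaneous) of C57BL/6 mice, 8 weeks old. Members were the rows of the deposited gene table whose symbol begins with Atp5, Uqcr or Sdha to Sdhd, or is Cyc1 or Cycs, without the 6 pseudogene names that carry -ps. These were 35 of 51912 genes, and all 35 had enough counts to be tested. They comprised 4 complex II subunits and 4 complex II assembly factors, 9 complex III subunits, cytochrome c, 15 genes of ATP synthase subunits, and 2 further genes whose symbols begin with Atp5. Mice received BML-260, a small molecule known to inhibit the phosphatase DUSP22 (JSP-1 in older usage), or the vehicle dimethyl sulfoxide (DMSO), and strain, tissue and age were the same in both groups. Each treatment had 2 libraries, labelled A and B, whose values are given below in that order. The series design counts 8 treated mice, 4 for each treatment, without saying which of them went into which of the 4 libraries, so the p-values measure only the spread between libraries, which may be technical.

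The respiratory chain of the inner mitochondrial membrane passes electrons from fuels to oxygen and pumps protons on the way. Complex II, succinate dehydrogenase, is also an enzyme of the citric acid cycle and hands electrons to ubiquinone without pumping protons, complex III takes them from ubiquinone to cytochrome c, and ATP synthase lets protons flow back to make ATP. In thermogenic adipocytes UCP1 gives the protons another way back, so that respiration yields heat, and brown adipocytes are known to hold much respiratory chain for little ATP synthase. The amount of ATP synthase in brown fat is known to follow the expression of Atp5g1, 1 of the genes of its c subunit.

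Total expected counts ran from 19999836 to 23726781 per library. Levels are given as CPM (counts divided by library size, which the TMM method adjusts between libraries), and levels of different genes are compared only as the authors' FPKM, which divides by transcript length. The 12 adipocyte markers took 3.34% to 5.41% of counts, and none of them was at 0 in any library. The 16 skeletal muscle markers took 0.0409% (A) and 1.04% (B) of the counts of the vehicle libraries but 3.08% (A) and 4.20% (B) of those of the BML-260 libraries. Because whole tissue was sequenced, fewer cells of a type and less RNA per cell cannot be told apart.

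Fold changes between BML-260 and vehicle were small across the 3 complexes, and no member passed the test. Log2 fold changes of the 28 nuclear subunits ran from -0.29 (Atp5g3) to 0.48 (Atp5g1) with a median of 0.02, and the median over all 15643 tested genes was also 0.02. Subunits above zero numbered 17 and those below numbered 11. By edgeR's quasi-likelihood test 0 of the 35 members passed a Benjamini-Hochberg adjusted p of 0.05, where 0.00639% of all tested genes did. At an unadjusted p under 0.05 stood 1 member, Atp5g1, which was higher with BML-260, against 11.1% of all tested genes in either direction and 7.45% higher. DESeq2 called 0 members, against 2.76% of all genes it gave an adjusted p, and limma-voom called 0. In the authors' deposited table, too, 0 members had an adjusted p under 0.05, against 0.688% of all rows. In CPM both BML-260 libraries lay above both vehicle libraries for 5 of the 35 members (Sdhd, Sdhaf3, Uqcrc1, Atp5g1 and Atp5sl), against 22.9% of all tested genes. They lay below for 2 (Sdhaf1 and Atp5g3), against 21.5%. Standard errors of the log2 fold changes were 0.12 to 0.27, and the 95% intervals of the 28 subunits together reached from 0.582-fold to 1.81-fold.

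**Figure D1:**
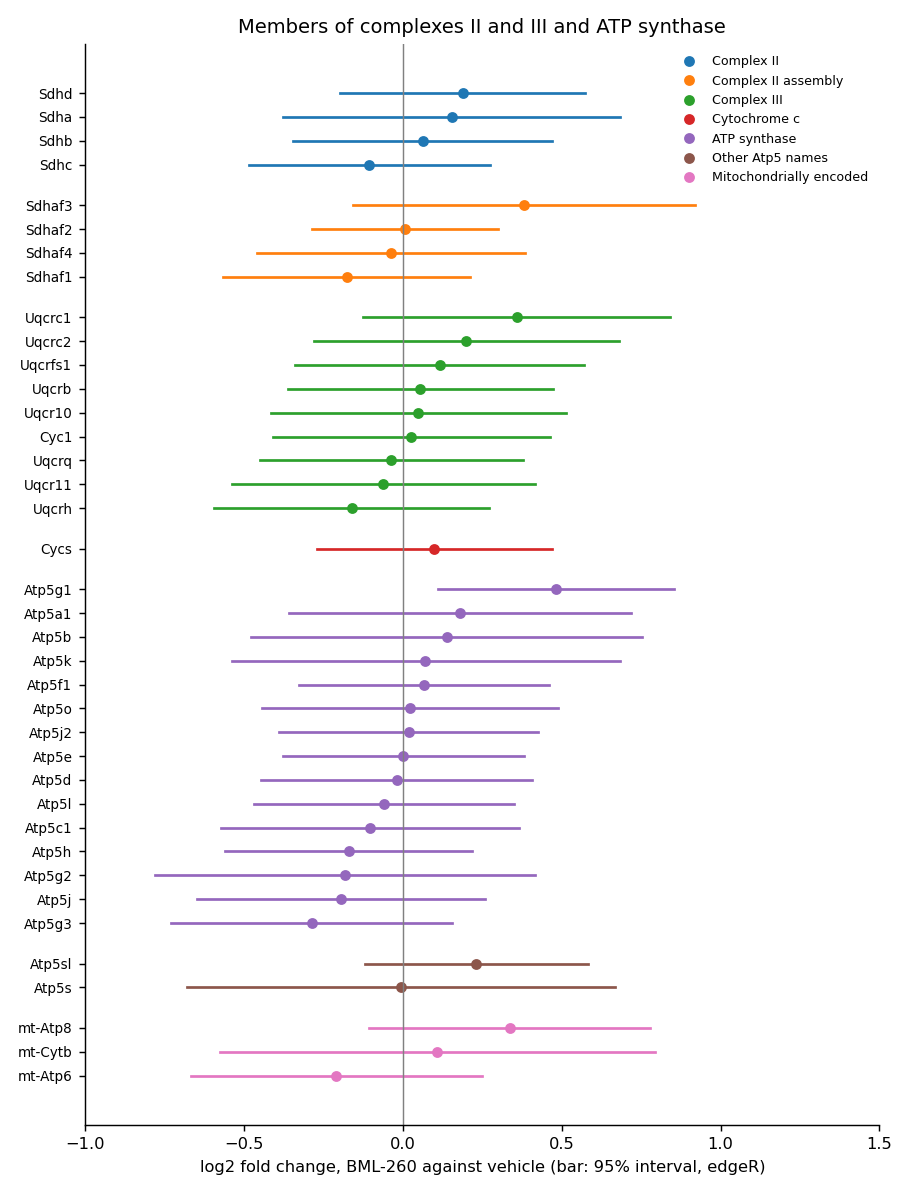
Log2 fold change of BML-260 against vehicle (x axis) for each of the 35 members and the 3 mitochondrially encoded partners (y axis), with points for edgeR estimates from 2 libraries per group and bars for 95% intervals. Of the members, Atp5g1 alone has an interval clear of zero, from 0.11 to 0.85, before any adjustment over genes.

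Relative to one another, the transcripts kept nearly the same order of level in all 4 libraries. Atp5b, the catalytic beta subunit of ATP synthase, had the highest FPKM of the 35 members, with 2466 and 2266 in vehicle A and B and 2722 and 3181 in BML-260 A and B. Sdhaf3, an assembly factor of complex II, had the lowest, between 1.73 and 2.32. Within complex II the order Sdha, Sdhb, Sdhd, Sdhc held in each library. Within complex III Uqcr10, Uqcr11 and Uqcrq took the first places in each library and Uqcrc2 the last. In ATP synthase Atp5b and Atp5e led, and Atp5f1, Atp5g1 and Atp5g2 came last in each library. Some places between these differed by group. Atp5a1 ranked 6 in both vehicle libraries and 3 in both BML-260 libraries, and Atp5g3 ranked 3 and then 4. In complex III Uqcrb stood above Uqcrh, and Uqcrc1 above Cyc1, in both BML-260 libraries and in neither vehicle library. FPKM of very short transcripts, such as Uqcr10 and Atp5e, rests on a small effective length and is less certain than that of longer ones.

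**Figure D2:**
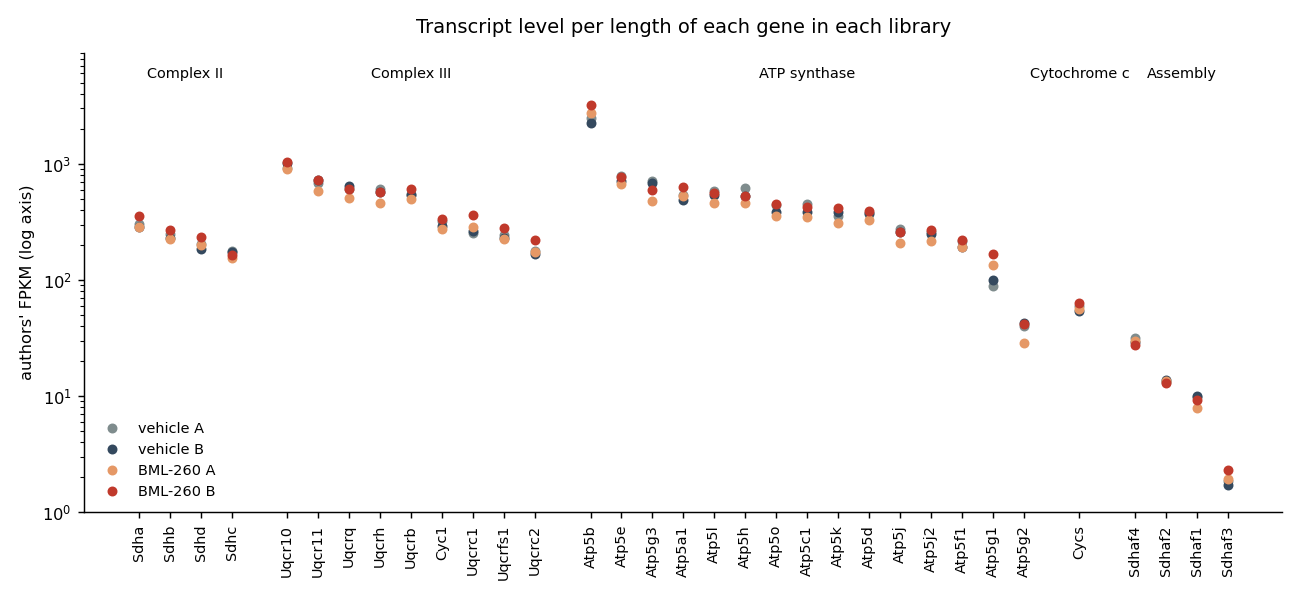
FPKM of each gene (y axis, log scale) by library (colours), with genes ordered by mean level inside each complex (x axis). Complex II subunits lie between 154 and 353 FPKM, and the c subunit genes Atp5g1 and Atp5g2 lie below all other ATP synthase subunits.

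Complex II is built from a flavoprotein, an iron-sulfur protein and a pair of membrane anchors, all encoded in the nucleus. Sdha, the flavoprotein that oxidises succinate, measured 753 and 732 CPM in the vehicle pair against 724 and 928 in the BML-260 pair, and the groups overlapped (log2 fold change 0.15, SE 0.21, edgeR adjusted p = 0.820). Sdhb, the iron-sulfur subunit, measured 204 and 195 CPM in the vehicle pair against 186 and 231 in the BML-260 pair (log2 fold change 0.06, SE 0.16). Its BML-260 values lay on either side of both vehicle values, as did those of Sdha. The membrane anchor gene Sdhc measured 200 and 186 CPM in the vehicle pair against 165 and 195 in the BML-260 pair (log2 fold change -0.11, SE 0.15). Sdhd, the other anchor, measured 185 and 172 CPM in the vehicle pair against 185 and 221 in the BML-260 pair (log2 fold change 0.19, SE 0.15, edgeR adjusted p = 0.678). Sdhd was the 1 subunit of the 4 whose groups did not overlap in CPM, by a margin of less than 1 CPM. In FPKM they did overlap, with 204 and 184 in the vehicle pair against 201 and 232 in the BML-260 pair. In CPM 44.3% of all tested genes had no overlap in one direction or the other.

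The assembly factors of complex II, which insert its cofactors and protect its unassembled subunits, were expressed at 1.73 to 31.8 FPKM, below the FPKM of every subunit they serve. Sdhaf3, which acts on the iron-sulfur subunit, measured 6.08 and 6.22 CPM in the vehicle pair against 7.46 and 8.56 in the BML-260 pair (log2 fold change 0.38, SE 0.21, edgeR adjusted p = 0.558), with both BML-260 libraries higher. Sdhaf1, another factor for the iron-sulfur subunit, measured 20.9 and 22.2 CPM in the vehicle pair against 17.3 and 20.9 in the BML-260 pair (log2 fold change -0.18, SE 0.15). Its upper BML-260 value was just under the lower vehicle value. Sdhaf2, needed to attach flavin to Sdha, measured 35.7 and 38.3 CPM in the vehicle pair against 37.3 and 37.1 in the BML-260 pair (log2 fold change 0.01, SE 0.12, 95% interval -0.29 to 0.30). Sdhaf4, which assists the flavoprotein, measured 11.4 and 11.2 CPM in the vehicle pair against 11.2 and 10.8 in the BML-260 pair (log2 fold change -0.04, SE 0.17). Sdhaf2 and Sdhaf4 varied least among the 4 libraries within the complex II genes.

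Complex III couples a catalytic core of cytochrome b, cytochrome c1 and the Rieske protein to a pair of large core proteins and several small subunits. Over its 9 nuclear subunits the fold changes centred on a log2 value of 0.05, and 6 of the 9 lay above zero. Uqcrc1, a core protein, measured 334 and 356 CPM in the vehicle pair against 388 and 497 in the BML-260 pair (log2 fold change 0.36, SE 0.19, edgeR adjusted p = 0.547), and was the only complex III subunit whose groups did not overlap. Uqcrc2, its partner in the core, measured 277 and 266 CPM in the vehicle pair against 268 and 356 in the BML-260 pair (log2 fold change 0.20, SE 0.19). BML-260 A thus stood between both vehicle libraries for Uqcrc2, while BML-260 B stood above them.

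Uqcrfs1, the Rieske iron-sulfur protein, measured 253 and 247 CPM in the vehicle pair against 235 and 305 in the BML-260 pair (log2 fold change 0.12, SE 0.18). Cyc1, which encodes cytochrome c1, had a log2 fold change of 0.03 (SE 0.17). At the other end stood Uqcrh, the small acidic hinge subunit, with 140.0 and 144 CPM in the vehicle pair against 109 and 144 in the BML-260 pair (log2 fold change -0.16, SE 0.17). For Uqcrh it was BML-260 A alone that lay apart. Uqcr10, the subunit with the highest FPKM of the complex, measured 118 and 147 CPM in the vehicle pair against 122 and 153 in the BML-260 pair, so that library B was the higher in both groups (log2 fold change 0.05, SE 0.18). Uqcr11, Uqcrq and Uqcrb, further small subunits, had log2 fold changes of -0.06, -0.04 and 0.06. Cycs, the mobile electron carrier between complex III and cytochrome c oxidase, measured 160 and 149 CPM in the vehicle pair against 152 and 179 in the BML-260 pair (log2 fold change 0.10, SE 0.15).

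ATP synthase consists of a catalytic head, a proton-conducting ring of c subunits, a peripheral stalk that holds the head still, and small membrane subunits that shape the dimer. In the head, whose 5 genes had log2 fold changes of -0.10 to 0.18, Atp5b measured 1818 and 1716 CPM in the vehicle pair against 1693 and 2196 in the BML-260 pair (log2 fold change 0.14, SE 0.24). Atp5a1, the alpha subunit that alternates with beta in the head, had a log2 fold change of 0.18 (SE 0.21). The gamma shaft gene Atp5c1 had -0.10, and the delta and epsilon genes Atp5d and Atp5e had -0.02 and 0.00. In CPM none of the 5 had groups that stood apart. In FPKM those of Atp5b did, with 2466 and 2266 in the vehicle pair against 2722 and 3181 in the BML-260 pair.

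In the peripheral stalk Atp5j, which encodes subunit F6, measured 129 and 127 CPM in the vehicle pair against 94.7 and 129 in the BML-260 pair (log2 fold change -0.20, SE 0.18). Atp5h, the stalk subunit d, measured 187 and 173 CPM in the vehicle pair against 145 and 176 in the BML-260 pair (log2 fold change -0.17, SE 0.15). Both had a single low library, BML-260 A. The other stalk genes, Atp5f1 (subunit b) and Atp5o (the oligomycin sensitivity protein), had log2 fold changes of 0.07 and 0.02. Among the small membrane subunits Atp5j2, Atp5k and Atp5l the log2 fold changes were 0.02, 0.07 and -0.06. Of the remaining pair, Atp5s lay at 5.53 to 7.31 CPM with a log2 fold change of -0.01. Atp5sl, named Dmac2 in GENCODE M21 and known for complex I assembly, had 0.23 (SE 0.14) with both BML-260 libraries higher in CPM. In FPKM its groups overlapped, with 19.9 and 19.6 in the vehicle pair against 23.5 and 19.4 in the BML-260 pair.

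The highest and the lowest fold change of the 28 subunits both belonged to the c ring. Atp5g1, Atp5g2 and Atp5g3 encode the same mature c subunit behind different mitochondrial targeting sequences. The estimated fold changes of these 3 genes differed in sign though they encode 1 mature protein, but none of the 3 passed the test. For description, the 250 bases upstream of each RefSeq start site (GRCm38.p6, minus strand of each chromosome) are shown. Capitals mark matches to the motifs searched for, on either strand.
Atp5g1 chr11:96075632-96075881: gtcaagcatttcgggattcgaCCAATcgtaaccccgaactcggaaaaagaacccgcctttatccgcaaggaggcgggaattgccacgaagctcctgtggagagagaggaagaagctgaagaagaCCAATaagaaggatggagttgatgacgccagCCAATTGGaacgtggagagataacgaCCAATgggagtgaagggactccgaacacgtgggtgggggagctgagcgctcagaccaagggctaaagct
Atp5g2 chr15:102671048-102671297: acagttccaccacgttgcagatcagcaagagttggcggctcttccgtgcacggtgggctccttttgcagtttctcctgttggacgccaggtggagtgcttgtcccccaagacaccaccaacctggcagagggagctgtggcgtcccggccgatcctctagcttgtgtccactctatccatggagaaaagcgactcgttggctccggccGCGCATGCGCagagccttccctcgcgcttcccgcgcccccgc
Atp5g3 chr2:73911327-73911576: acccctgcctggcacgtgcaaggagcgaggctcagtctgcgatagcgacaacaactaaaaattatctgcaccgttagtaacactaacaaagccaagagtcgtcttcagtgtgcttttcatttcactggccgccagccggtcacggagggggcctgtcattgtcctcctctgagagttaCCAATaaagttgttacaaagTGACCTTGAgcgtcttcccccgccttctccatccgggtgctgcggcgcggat

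The Atp5g1 window holds 5 matches to the CCAAT box, with one CCAAT overlapping one ATTGG, its reverse complement. As many were found in 0.213% of all 32851 RefSeq promoter windows of that length, and the Atp5b window also holds 5. The capitals in the Atp5g2 window are the core of the nuclear respiratory factor 1 (NRF1) motif, which reads the same on both strands and was found in 0.782% of all windows. That window, 102671048 to 102671297, lies inside the GENCODE span of the gene, 102662864 to 102672352. The RefSeq start used for Atp5g2 thus differs from the GENCODE start. That for Atp5g1 differs too, as part of its window, 96075632 to 96075881, lies inside the GENCODE span of the gene, which ends at 96075670. The Atp5g3 window holds TGACCTTGA, the reverse complement of the estrogen-related receptor (ERR) motif TCAAGGTCA, found in 0.387% of all windows, and 1 CCAAT. Sequence windows were matched for 27 of the 35 members. Among those 27, the NRF1 core with any base allowed in place of its only T was present in 5 (18.5%), against 3.74% of all windows. CCAAT was in 15 (55.6%), against 33.8%. The ETS factor motif CCGGAAGT was in 3 (11.1%), against 2.88%, and the cyclic AMP element TGACGTCA in 2 (7.41%), against 1.55%. The SP1 motif GGGGCGGGG was in 3 (11.1%), against 10.4%. AAGATGGCG, a YY1 motif, was in none of the 27 and in 0.606% of all windows. The 27 windows had a median GC content of 56.8%, against 52.4% over all windows. A match describes letters in the window and does not show that a factor binds there.

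Atp5g1 (ENSMUSG00000006057; chromosome 11, 96068852 to 96075670, GRCm38) lay at 39.6 and 45.6 CPM in vehicle A and B and at 54.5 and 64.6 in BML-260 A and B, a mean of 42.6 ± 4.25 against 59.6 ± 7.20 (SD, n = 2 each). Both BML-260 libraries were thus higher than both vehicle libraries. The log2 fold change was 0.48 (SE 0.15), or 1.40-fold with a 95% interval of 1.08 to 1.81, and the edgeR adjusted p was 0.385. In the authors' deposited table the log2 fold change was 0.43 with an adjusted p of 0.327. Atp5g3 (ENSMUSG00000018770; chromosome 2, 73908447 to 73911326) measured 286 and 289 CPM in the vehicle pair against 207 and 264 in the BML-260 pair, both lower (log2 fold change -0.29, SE 0.17, edgeR adjusted p = 0.586). Atp5g2 (ENSMUSG00000062683; chromosome 15, 102662864 to 102672352) measured 16.4 and 18.1 CPM in the vehicle pair against 12.0 and 18.4 in the BML-260 pair, with overlap (log2 fold change -0.18, SE 0.24). Of all 15 ATP synthase subunit genes, Atp5g1 departed farthest upward from their median and Atp5g3 farthest downward.

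As a share of the summed FPKM of the 3 genes, Atp5g1 made up 10.6% and 12.0% in the vehicle pair and 20.7% in each BML-260 library. Atp5g3 gave 84.7% and 82.9% in the vehicle pair against 74.8% and 74.1% in the BML-260 pair, and Atp5g2 between 4.47% and 5.23% in all 4. The shift was smaller on counts, where Atp5g1 made up 11.6% and 12.96% in the vehicle pair against 19.94% and 18.64% in the BML-260 pair. The ratio of Atp5g1 to Atp5g3 was 0.125 and 0.145 in the vehicle pair against 0.277 and 0.279 in the BML-260 pair on the FPKM scale, 2.07-fold higher. On counts the ratio was 0.139 and 0.158 in the vehicle pair against 0.264 and 0.245 in the BML-260 pair, 1.72-fold higher. Because Atp5g1 was higher and Atp5g3 lower without overlap, their ratio could not overlap either, and it is given as a description with no test. Such a ratio does not depend on the scaling between libraries, and the 3 genes have similar effective lengths of 418 to 441 bases as medians over the libraries. The FPKM ratio lay below the count ratio in both vehicle libraries and above it in both BML-260 libraries. The lengths behind FPKM thus differed between libraries and account for the larger difference on that scale. Some counts of Atp5g1 and Atp5g2 were not whole numbers, so part of their reads was shared with other loci, while those of Atp5g3 were whole in every library.

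**Figure D3:**
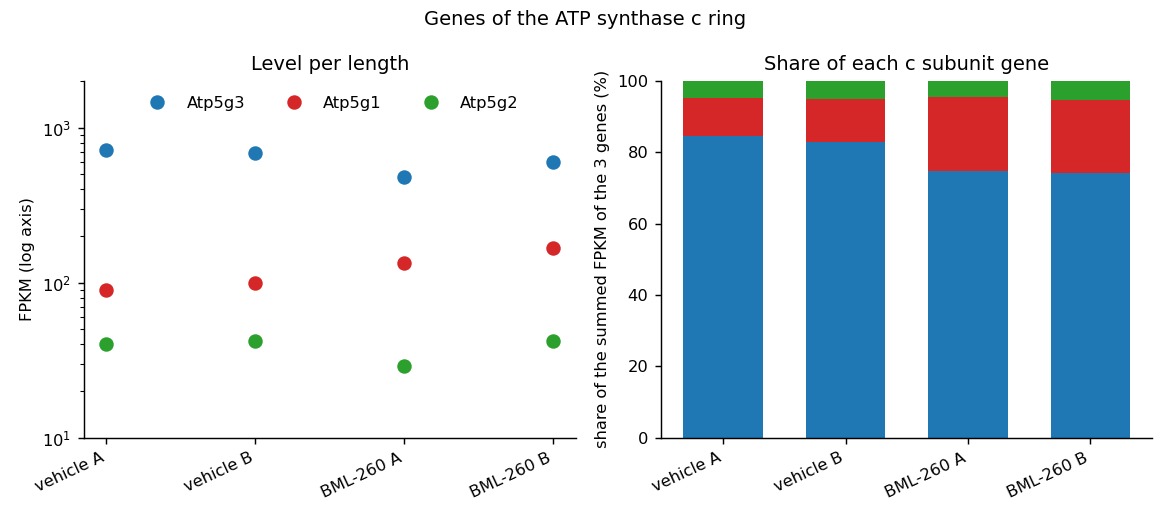
Left, FPKM (log axis) of Atp5g3, Atp5g1 and Atp5g2 in each library; right, the share of each gene in their summed FPKM (bars from 0 to 100%). Atp5g1 supplies 10.6% and 12.0% of the sum in the vehicle libraries and 20.7% in both BML-260 libraries. On counts, not drawn, its shares are 11.6% and 12.96% with vehicle and 19.94% and 18.64% with BML-260.

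Cell type markers differed between the groups as well. The summed level of the 9 brown and beige adipocyte markers was 161 and 187 CPM of the library total in the vehicle pair against 700.0 and 701 in the BML-260 pair, with 9 of 9 above zero in log2 fold change. Muscle fibres also express ATP synthase strongly, and the summed level of the 16 muscle markers was 409 and 10400 against 30750 and 42010, with 16 of 16 above zero. The ratio of Atp5g1 to Atp5g3 differed little between vehicle A and B, and between BML-260 A and B. The part of either cell type in the c-ring ratio was not tested, nor was the part of muscle in the levels of the 9 brown and beige markers.

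Complex III and ATP synthase each hold subunits encoded in mitochondrial DNA. mt-Cytb, the cytochrome b of complex III, measured 5354 and 6127 CPM in the vehicle pair against 5697 and 6685 in the BML-260 pair, with overlap (log2 fold change 0.11, SE 0.27). mt-Atp8 measured 205 and 254 CPM in the vehicle pair against 273 and 306 in the BML-260 pair, all higher (log2 fold change 0.34, SE 0.17, edgeR adjusted p = 0.538). mt-Atp6, the proton channel subunit, measured 563 and 517 CPM in the vehicle pair against 431 and 504 in the BML-260 pair, all lower (log2 fold change -0.21, SE 0.18, edgeR adjusted p = 0.698). mt-Atp8 and mt-Atp6 lie on 1 transcript with overlapping reading frames, so how reads were divided between them sets their separate values. The ratio of their counts was 0.363 and 0.491 in the vehicle pair against 0.633 and 0.607 in the BML-260 pair, which likewise had to stand apart and was not tested. Their summed share of counts was 0.0793% and 0.0775% in the vehicle pair against 0.0731% and 0.0749% in the BML-260 pair. Nuclear copies of mitochondrial sequence add to the uncertainty of these genes.

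Among 14 measured genes that assemble or regulate these complexes but fall outside the symbol rule, 0 passed the edgeR test in either direction, 0 lay under 0.05 before adjustment, and 0 passed with DESeq2. Their median log2 fold change was 0.01, with 7 above and 7 below zero. The list holds the complex III factors Uqcc1, Uqcc2, Uqcc3, Bcs1l, Ttc19 and Lyrm7, the ATP synthase factors Atpaf1, Atpaf2, Tmem70, Fmc1 and Tmem242, the inhibitor Atpif1, and the small subunit genes Usmg5 and 2010107E04Rik. Their log2 fold changes ran from -0.19 to 0.28.

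The clearest pattern in the subunits lay inside the BML-260 group. All 28 nuclear subunits were higher in BML-260 B than in BML-260 A, against 53.1% of all tested genes. Their median difference was 1.27-fold, within a range of 1.17-fold (Atp5f1) to 1.53-fold (Atp5g2). All 4 complex II, all 9 complex III and all 15 ATP synthase subunits took part, with medians of 1.22-fold, 1.30-fold and 1.27-fold. Between the vehicle libraries 14 of 28 were higher in B than in A, against 49.5% of all tested genes, and the median difference on the log2 scale was -0.01. BML-260 A was the lowest of the 4 libraries for 22 of the 28 subunits, against 31.2% of all tested genes, and BML-260 B the highest for 23, against 24.9%. The direction was not particular to the subunits. Of the 14 assembly and regulation genes outside the symbol rule, 11 were also higher in BML-260 B than in A. As CPM of the library total, the adipocyte and skeletal muscle marker sums were higher in B, and the B cell, T and NK cell and macrophage sums lower. The subunits share their libraries and so are not independent evidence of a difference between animals.

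Other scalings kept the direction between the BML-260 libraries, but not how often BML-260 B was the highest of the 4. It was highest for 22 of the 28 subunits with DESeq2 size factors, 17 with the authors' FPKM and 13 with library totals, and BML-260 A was lowest for 23, 21 and 19 in turn. All 28 subunits were higher in BML-260 B than in A with DESeq2 size factors, with library totals and with the authors' FPKM, and the median difference was 1.28-fold, 1.14-fold and 1.22-fold in turn. With library totals the median of all tested genes moved by -0.14 on the log2 scale between the same libraries and 33.4% of genes were higher in B. Of the complex II assembly factors, 2 of 4 were higher in BML-260 B, and Sdhaf2, Sdhaf4 and Atp5sl were the members that were not. Cycs, mt-Cytb and mt-Atp6 were higher in B as well, both in CPM and in FPKM. For mt-Atp8 the measures differed, with 273 CPM in A and 306 in B but 67260 FPKM in A and 59260 in B. On the log2 scale, with each gene set to its mean over libraries, the median of the 28 subunits was -0.02 and 0.01 in the vehicle pair, then -0.17 and 0.18 in the BML-260 pair. With library totals the last of these values was 0.07.

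**Figure D4:**
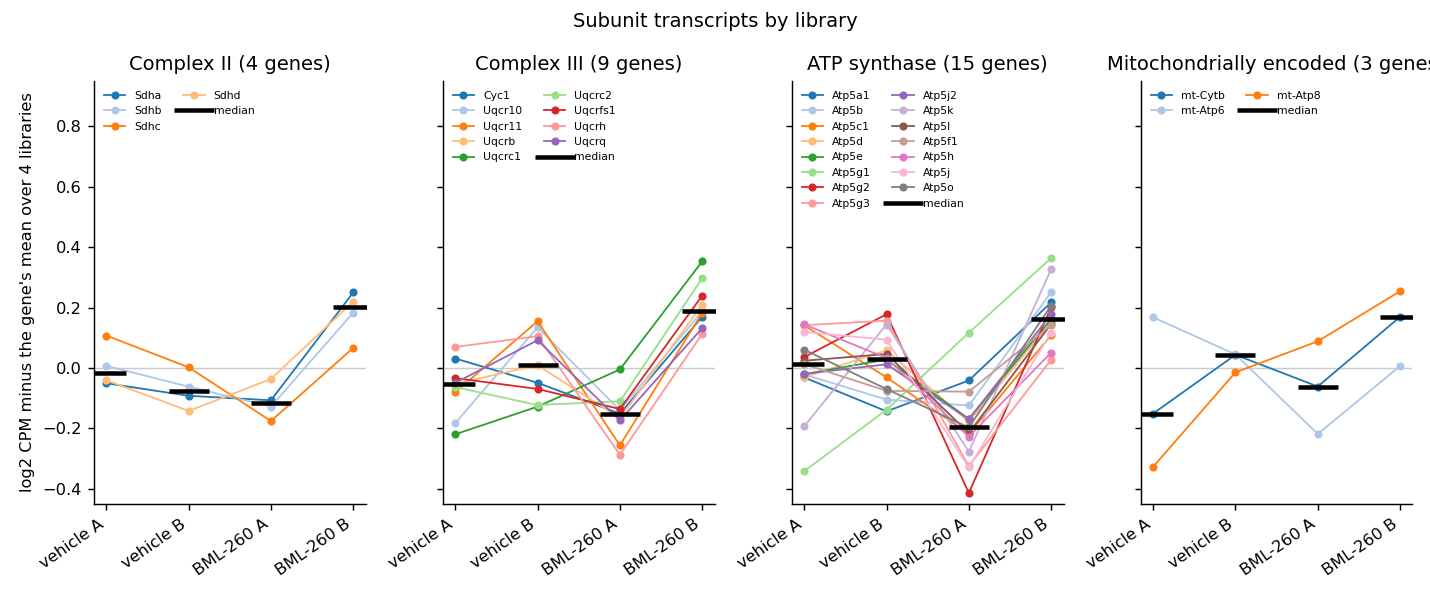
Level of each subunit gene in each library (x axis) as log2 CPM minus that gene's mean over the 4 libraries (y axis), for complexes II and III, ATP synthase and the mitochondrially encoded partners. Lines join the values of 1 gene and black bars are medians, which lie between -0.20 and -0.12 in BML-260 A and between 0.16 and 0.20 in BML-260 B for the nuclear subunits of the 3 complexes.

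The comparison of treatments turned on which BML-260 library was used. Without BML-260 B the median log2 fold change was -0.07 for complex II, -0.15 for complex III and -0.20 for ATP synthase. Without BML-260 A it was 0.25, 0.19 and 0.14. With both, it was 0.11 for complex II, 0.05 for complex III and 0.00 for ATP synthase. With library totals in place of TMM the medians of complex III and ATP synthase were -0.01 and -0.06. Among the named members whose sign did not change with any 1 library left out, the log2 fold change ranged from 0.35 to 0.59 for Atp5g1, 0.16 to 0.51 for Uqcrc1, 0.27 to 0.46 for Sdhaf3 and 0.05 to 0.30 for Sdhd. On the other side it ranged from -0.48 to -0.14 for Atp5g3, -0.32 to -0.06 for Sdhaf1 and -0.32 to -0.05 for Atp5h. Atp5j (-0.44 to -0.00387) and Sdhc (-0.24 to -0.00326) came to zero in effect without BML-260 A, and Sdhaf4 stayed near zero throughout.

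In 3 of the 35 members, Atp5g1, Uqcrc1 and Sdhaf3, CPM increased in the order vehicle A, vehicle B, BML-260 A, BML-260 B. This order was looked for after values were seen. It was shared by the sums, as CPM of the library total, of the skeletal muscle and of the brown and beige adipocyte markers. The brown and beige sums of the BML-260 pair were nearly equal, 700.0 and 700.5. The same order of CPM held in 7.04% of all tested genes, which is near the share among the members, and in 1 of the 3 mitochondrially encoded partners, mt-Atp8. In FPKM neither Sdhaf3 (1.84 and 1.73 in vehicle A and B) nor mt-Atp8 (67260 and 59260 in BML-260 A and B) kept it.

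Cell type markers also differed inside the BML-260 group. The 12 adipocyte markers summed to 33430 (A) and 42960 (B) CPM of the library total in the BML-260 pair, against 54080 and 51450 in vehicle A and B, and all 12 had log2 fold changes below zero. The 8 B cell markers summed to 198 (A) and 2.99 (B) in that pair, against 2.01 and 2.61 with vehicle, where 1 of the 8 was at 0 in each library. The 8 T and NK cell markers summed to 108 (A) and 10.6 (B), against 7.64 and 17.1 with vehicle, and the 8 macrophage markers to 2672 and 1244, against 1850 and 2074. The median of the 28 subunits was thus lowest in the library with the lowest adipocyte and the highest B, T and NK cell marker sums. The 16 muscle markers summed to 30750 (A) and 42010 (B) in the BML-260 pair, so they were higher in the library with the higher subunit median. Between the vehicle libraries they differed from 409 to 10400 while the median subunit level differed by 0.03 on the log2 scale. The part of cell composition in the subunit levels was not tested.

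**Figure D5:**
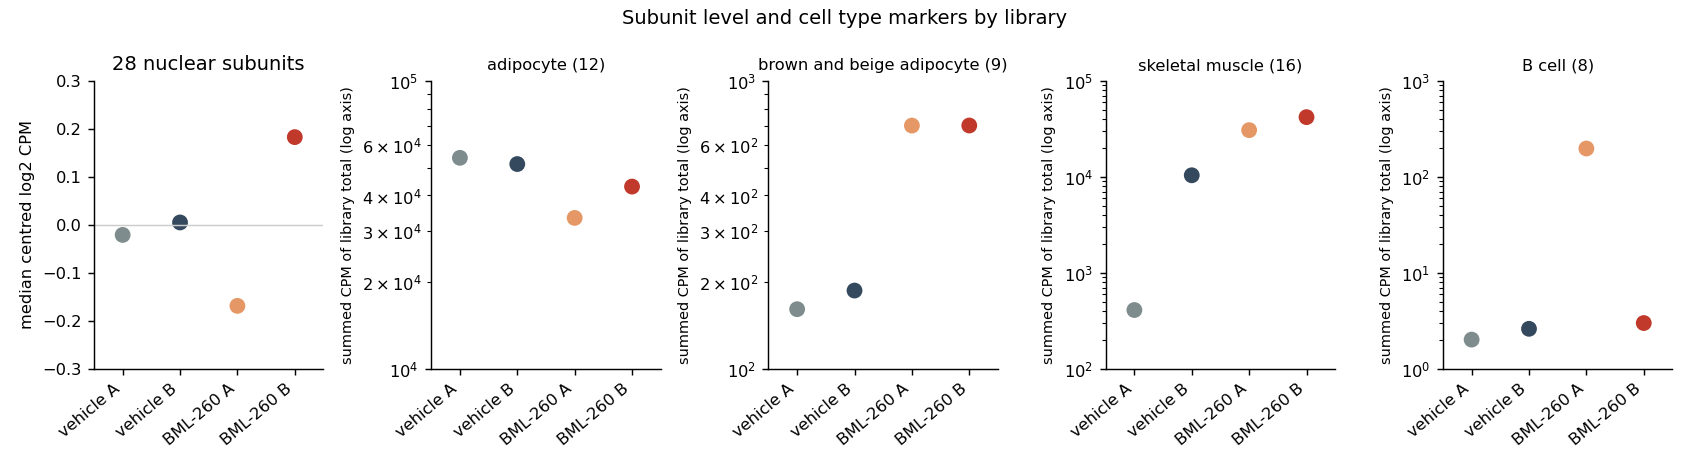
Median centred level of the 28 nuclear subunits (log2 scale) and the summed CPM of 4 marker lists (log axes, number of genes in brackets) in each library. BML-260 A has the lowest subunit median (-0.17), the lowest adipocyte sum (33430) and the highest B cell sum (198).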

How the data were processed

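Total RNA was isolated with TRIzol and made into 4 Illumina libraries, 2 per treatment, according to the labels' protocols. Expected counts per gene, not normalized, and FPKM were deposited by the authors, per the file headers. The authors' own comparison was deposited as log2 fold change, p-value and adjusted p-value. The group means they deposited were not used, among them 2 columns with the log2 of the mean count. GRCm38.p5, DESeq2 1.10.1, RSEM 1.2.31 and HISAT2 2.1.0 are listed, without role, in the submitters' processing notes. Which annotation and strand setting were used is not given in the sources used here. Overlapping genes and near-identical copies are therefore uncertain, and 28 of 35 members had whole counts in all libraries.

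Counts were rounded, filtered with filterByExpr (15643 genes left) and tested with edgeR 4.0.16 (quasi-likelihood, TMM, group as the only term, two-sided, Benjamini-Hochberg over all genes at 0.05; R 4.3.3). The residual degrees of freedom were 2 and the biological coefficient of variation was 23.0%. SEs were derived from the F statistic. Replicates differed by more than counting noise. Alternatives were DESeq2 1.42.0, limma-voom 3.58.1, other scaling factors, no filter, FPKM with a pseudocount of 0.1, each library left out, and the library letter as a block. The tests were checked on simulated counts. Gene positions are from GENCODE M21 (GRCm38) and promoter windows from RefSeq (GRCm38.p6). Members and lists were chosen with earlier results of these data known. Values in every library are given for complex II genes, the c-ring genes, Cycs, the mitochondrially encoded partners, and in complex III and ATP synthase for the 4 smallest p, the FPKM extremes and the largest departures from the median; other members are named with a fold change only.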

Additional observations from a re-analysis of the deposited data

How the results depend on the processing

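The number of genes called over the whole table was 1 in the main test, 651 without a filter on low counts, 407 with DESeq2, and 0 to 309 when 1 library was left out (0 without vehicle A, 309 without vehicle B, 5 without BML-260 B); members called were 0 under every one of these settings. Medians with 1 library left out ran from -0.073 to 0.246 for complex II, from -0.147 to 0.190 for complex III and from -0.198 to 0.144 for ATP synthase, with the low ends without BML-260 B and the high ends without BML-260 A. Such fits assume that the lone library varies like the other group. Of 138 values of the 23 named genes under other settings with all libraries, 134 kept their direction and side of the threshold. The exceptions were Sdhaf2 (-1.18e-05 with DESeq2 size factors, -0.000111 with DESeq2, -0.044 with library totals) and Uqcr10 (-0.0109 with library totals). With 1 library left out, 11 named genes changed sign, within ranges of -0.0662 to 0.300 for Atp5b, -0.526 to 0.0781 for Atp5g2, -0.0278 to 0.198 for Cycs, -0.0399 to 0.307 for Sdha, -0.0688 to 0.0568 for Sdhaf2, -0.105 to 0.196 for Sdhb, -0.129 to 0.215 for Uqcr10, -0.0219 to 0.376 for Uqcrc2, -0.0885 to 0.277 for Uqcrfs1, -0.380 to 0.0116 for Uqcrh and -0.0153 to 0.208 for mt-Cytb. None of these genes passed the threshold under any setting. The cause of these changes was not tested.

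With the library letter as a replicate block 0 genes were called, and the medians were 0.099 for complex II, 0.044 for complex III and -0.007 for ATP synthase. Libraries of the same letter did not deviate together (correlation of deviations -0.04), and nothing in the labels says that the letters pair the libraries.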

Other observations

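Subunits with longer transcripts tended to the higher fold changes. Over the 28 nuclear subunits, Spearman's rho between the log2 fold change and the effective length implied by the deposited counts and FPKM was 0.48 and Pearson's r was 0.42, as a description across genes that share their 4 libraries. Over all 15643 tested genes the same values were 0.17 and 0.07. The 5 longest, Uqcrc1 (1349 bases), Uqcrc2 (1601), Atp5a1 (2188), Sdha (2578) and Atp5f1 (1286), all had fold changes above zero. Sdhc, the next in length with 1106 bases, had -0.11. Of the 11 subunits longer than 800 bases 9 were above zero, and of the 17 others 8 were. Over all tested genes the same split gave 7550 of 13936 and 664 of 1707. Lengths are medians over the libraries. Atp5g1 lay outside this relation, with 441 bases and the highest log2 fold change, 0.48, beside Atp5g2 and Atp5g3 with 425 and 418 bases and -0.18 and -0.29.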
